A study of Mus musculus and Homo sapiens with 19 samples.

Results

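Bend3 endothelial cells that had been grown together with EMT6.5 tumour cells were compared with Bend3 cells grown alone. The comparison rests on 2 of the 19 libraries of the series, 1 library of each kind, chosen by their labelled culture condition. Bend3 is a mouse brain endothelial cell line immortalised with polyomavirus middle T antigen, and EMT6.5 is a mouse mammary tumour line. Per the labels, tumour and endothelial cells of the co-cultures were separated by fluorescence-activated cell sorting before RNA extraction, whereas no sort is mentioned for Bend3 grown alone, so sorting and co-culture cannot be told apart. The labels name no drug, genetic change, culture time or cell ratio for these libraries. A library of EMT6.5 from the same co-culture was used to bound tumour RNA carried into the sorted Bend3 library. The library of Bend3 co-cultured with 4T1, another mouse mammary tumour line, is set beside a few results.

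Endothelial cells line blood vessels and set vascular tone, leakiness and the entry of blood cells into tissue. In the brain they form tight junctions under Wnt control, and in tumours they meet secreted factors such as VEGF, TGF-beta and endothelin. TGF-beta signals through receptor kinases and SMAD transcription factors, which switch on inhibitors of the same pathway as well as matrix genes. Oxidant stress acts on endothelial cells through the factor NRF2, and viral or tumour-derived signals act through interferon receptors and STAT factors.

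Levels are given as CPM, a gene's counts per 1 M counts in genes, with the co-culture scaled to the monoculture by TMM (the trimmed mean of M values). Ratios are the level with EMT6.5 over the level alone, or the reverse for genes that were lower, and ranges in parentheses after a ratio are its 95% exact counting interval. With 1 library on each side there was no replicate check and no test, and the intervals cover counting error only, so "higher" and "lower" describe these 2 libraries. In addition, in bulk RNA fewer cells of a type and less RNA per cell cannot be told apart.

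The deposited counts in genes were 4.78 M for Bend3 alone, 5.75 M for Bend3 with EMT6.5, 4.69 M for EMT6.5 with Bend3 and 5.87 M for Bend3 with 4T1. Entries aligned to more than 1 place made up 48.2% to 53.8% of all entries in these libraries, so genes with near-identical copies are undercounted and their ratios are uncertain. Mitochondrial genes took 8.20% of counts in Bend3 alone and 6.40% with EMT6.5. All 19 endothelial markers, including Pecam1, Cdh5, Tek and Tie1, reached 5 CPM in both Bend3 libraries, and their summed level was 11640.5 CPM alone, 14605 CPM with EMT6.5 and 188 CPM in the EMT6.5 library. The summed level of 9 epithelial and tumour-line markers was 1.46 CPM alone, 6.13 CPM with EMT6.5 and 524 CPM in EMT6.5. Most of the EMT6.5 sum came from Krt18 (383 CPM) and Krt8 (134 CPM). Krt18 had 2 counts alone and 24 with EMT6.5, and Krt8 had 2 and 12. The other 7 (Epcam, Cdh1, Krt19, Krt14, Krt5, Esrp1 and Cldn7) had 0 counts in Bend3 with EMT6.5. They were low in EMT6.5 too, so their 0 counts say little about carried-over RNA. Of 8 leukocyte markers, 7 had 0 counts in both Bend3 libraries, and the lysosomal glycoprotein gene Cd68 was at 396 CPM alone and 219 CPM with EMT6.5, 1.81-fold (1.69 to 1.95) lower.

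Genes high in EMT6.5 and near 0 in Bend3 alone had low counts in the sorted Bend3 library. Over 117 genes with at least 50 CPM in EMT6.5 and at most 0.5 CPM in Bend3 alone, this library held 1267 counts. That amounts to 1.53% (1.44% to 1.61%, exact Poisson interval) of the EMT6.5 level. The same genes had 66 counts in Bend3 alone and 1094 in Bend3 with 4T1, a co-culture without EMT6.5. Carried-over EMT6.5 RNA and a rise in Bend3 itself therefore cannot be told apart by these counts. The share per gene ran from 0, in 3 genes, to 6.79% for Tmeff1, with a median of 1.33%. The pooled share is an upper bound, since a gene of this set may also be switched on in Bend3. It does not bound a single gene, as shares per gene ran up to 6.79%. Carried-over estimates given for single genes are the pooled share times the EMT6.5 level, so they can be too low or too high. The sum of 9 mural and fibroblast markers was 6.07 CPM alone, 35.9 CPM with EMT6.5 and 1607 CPM in EMT6.5, and Rgs5, Des, Col3a1 and Dcn had 0 counts in Bend3 with EMT6.5. Of those 9, Col1a1 and smooth muscle actin, Acta2, reached 5 CPM with EMT6.5, and for Acta2 the carried-over estimate was 87.7% of its level with EMT6.5. In a longer list of 20 epithelial and tumour-line genes the 1 measured member was Wfdc2, at 2.51 CPM alone and 15.8 CPM with EMT6.5, with an estimate of 97.7%. The plot of carried-over RNA shows where genes named below stand against this share.

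**Figure D1:**
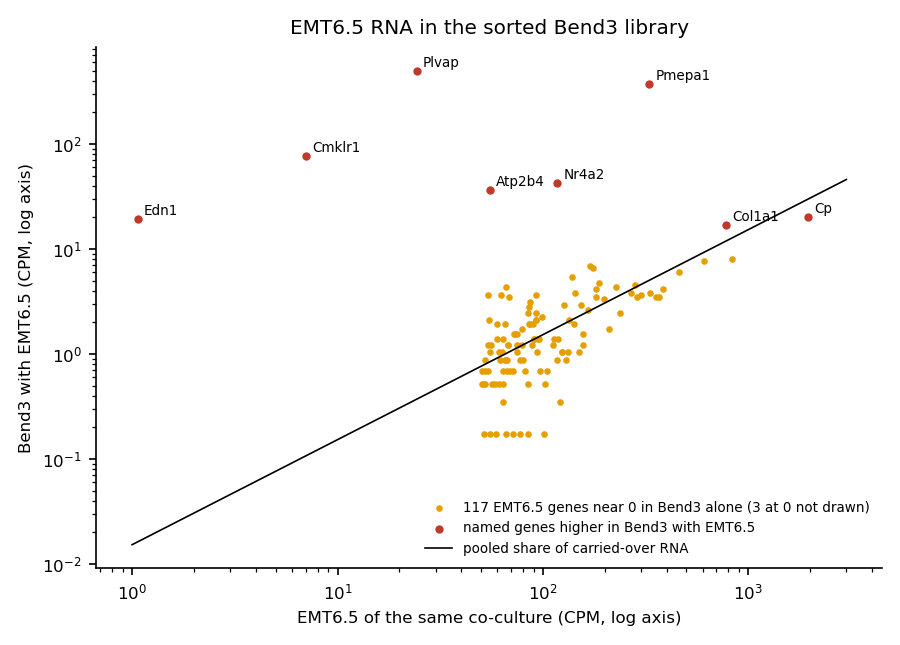
Level in EMT6.5 of the same co-culture (x axis, CPM, log axis) against level in Bend3 with EMT6.5 (y axis, CPM by library total, log axis). Orange points are the 117 EMT6.5 genes near 0 in Bend3 alone, the line is the pooled share of 1.53%, and red points are named genes higher in co-culture, of which Col1a1 and Cp lie near the line and Edn1, Plvap, Cmklr1, Pmepa1, Nr4a2 and Atp2b4 lie above it.

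A mean level of 5 CPM or more was reached by 9933 genes, called measured here. Of these, 227 (2.29%) were at least 2-fold higher with EMT6.5 and 186 (1.87%) at least 2-fold lower, 413 (4.16%) in all. At 1.5-fold the counts were 849 (8.55%) higher and 785 (7.9%) lower. The counting interval lay wholly past 2-fold for 55 higher and 32 lower genes. A ratio above 1 was found for 50.9% of genes and the median log2 ratio over all of them was 0.01. These shares of all measured genes are the background against which the list counts below stand. The genes described next are those with the largest ratios by the bound of the interval nearest to no change, 20 in each direction averaging 10 CPM or more, followed by gene lists with their counts. Among the higher genes, Cp (ceruloplasmin) and Col1a1 (a type I collagen chain) stand apart, because the carried-over estimate was 148% and 70.4% of their levels with EMT6.5.

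**Figure D2:**
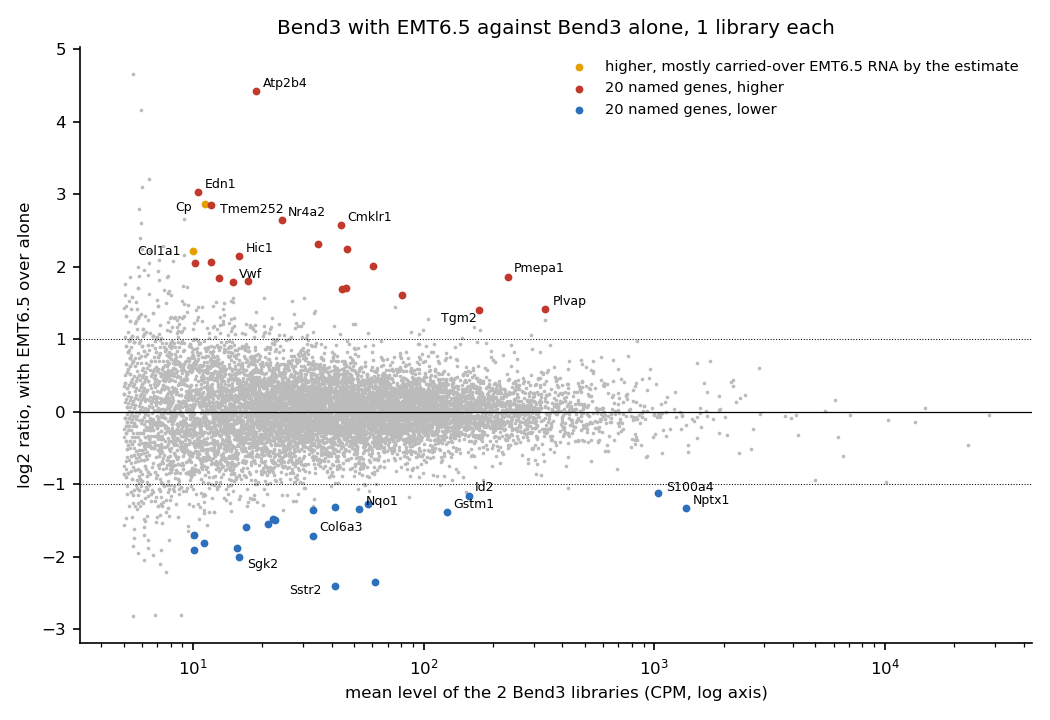
Log2 ratio of Bend3 with EMT6.5 over Bend3 alone (y axis) against the mean level of both libraries (x axis, CPM, log axis) for each gene with counts in both. Red and blue points are the 20 named higher and 20 named lower genes, orange points are Cp and Col1a1, and dotted lines mark 2-fold. Atp2b4 is highest of the named genes at 21.5-fold, and Sstr2 is lowest.

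Among genes averaging 10 CPM or more, the largest ratio was that of Atp2b4, which encodes a calcium pump of the plasma membrane (GRCm38 chr1:133699457-133801041). It had 8 counts (1.67 CPM) alone and 211 counts (35.9 CPM) with EMT6.5, 21.5-fold (10.7 to 50.4) higher. In Bend3 with 4T1 it stood at 6.09 CPM, between the 2 others. Its level in EMT6.5 was 55.3 CPM, of which the carried-over share would supply 2.3% of the level in co-cultured Bend3. Another calcium-handling gene, Slc8a1, the sodium-calcium exchanger, was lower: 25.5 CPM alone and 8.52 CPM with EMT6.5, 3.0-fold (2.14 to 4.25) lower. The calcium-binding protein gene Cabp1 was at 3.97 CPM alone and 16.5 CPM with EMT6.5, 4.16-fold (2.52 to 7.2) higher. Exons of Atp2b4 overlap a microRNA gene, and those of Slc8a1 overlap other genes on the opposite strand; whether the counting used strand was not given in the sources used here.

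Edn1 and Ednrb, a ligand and a receptor gene of the endothelin system, were both higher. Edn1 (chr13:42301476-42307990) encodes endothelin-1, a vasoconstrictor peptide made by endothelium. It had 11 counts (2.3 CPM) alone and 110 counts (18.7 CPM) with EMT6.5, 8.14-fold (4.38 to 16.8) higher, and it was close to absent in EMT6.5 at 1.07 CPM. Its exons overlap an antisense gene. The receptor gene Ednrb had 37 counts (7.74 CPM) alone and 130 counts (22.1 CPM) with EMT6.5, 2.86-fold (1.97 to 4.24) higher. Both genes were low in Bend3 alone, and Bend3 with 4T1 lay between for both, at 12 CPM for Edn1 and 15.6 CPM for Ednrb. A list of endothelin and vasoactive genes, drawn up after values were seen, had 12 measured members. Of these, 5 were at least 2-fold higher, where 2.29% of all genes were, and 0 lower. A ratio above 1 was found for 9, and for 50.9% of all genes. The median log2 ratio was 0.41 against 0.01 over all genes. The other 3 at least 2-fold higher were Pde4b, a cyclic AMP phosphodiesterase, Ptgs1, a prostaglandin synthase, and Ramp3, a subunit of adrenomedullin receptors. Pde4b was at 60.9 CPM alone and 148 CPM with EMT6.5, 2.43-fold (2.13 to 2.79) higher. Ptgs1 was at 28 CPM alone and 59.1 CPM with EMT6.5 and Ramp3 at 97.1 CPM alone and 197 CPM with EMT6.5. Apart from Ramp3, the named members that make or sense nitric oxide, natriuretic peptide or adrenomedullin stood close to 1. The ratio was 1.05 (1.01 to 1.1) for Nos3, 0.954 (0.891 to 1.02) for Npr1, 0.949 (0.917 to 0.982) for Calcrl and 1.01 (0.966 to 1.05) for Ramp2. Ace, the gene of angiotensin-converting enzyme, was the member with the lowest ratio, 0.575 (0.326 to 0.998), on 34 and 24 counts. The list's median was 0.08 when only members averaging 20 CPM or more were kept.

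Several receptors and regulators had similarly large ratios. Cmklr1, the chemerin receptor, was at 60 counts (12.6 CPM) alone and 439 counts (74.8 CPM) with EMT6.5, 5.96-fold (4.54 to 7.94) higher. Nr4a2, an orphan nuclear receptor of the immediate early class, was at 32 counts (6.69 CPM) alone and 245 counts (41.7 CPM) with EMT6.5, 6.23-fold (4.3 to 9.32) higher. For both, Bend3 with 4T1 lay between, at 32.7 and 16.4 CPM. The transmembrane protein gene Tmem252 was at 2.93 CPM alone and 21.1 CPM with EMT6.5 and had 0 counts in EMT6.5. Trp53i11, a p53-inducible gene, was 4.96-fold (3.73 to 6.7) higher, and Dapk2, a death-associated kinase, 4.73-fold (3.71 to 6.09) higher. Hic1, a transcriptional repressor, was 4.42-fold (2.94 to 6.87) higher, and Tead4, a transcription factor of the Hippo pathway, 3.48-fold (2.42 to 5.12) higher. Cd200, a ligand that restrains myeloid cells, was at 39.7 CPM alone and 121 CPM with EMT6.5, 3.06-fold (2.6 to 3.6) higher, and the protocadherin gene Pcdh17 was 3.24-fold (2.6 to 4.08) higher. Mbd4, a DNA glycosylase, and Ttyh1 were 3.26-fold and 3.59-fold higher, and exons of both overlap an opposite-strand gene. Chd3, a chromatin remodeller, was 4.18-fold (2.63 to 6.94) higher, but the carried-over estimate was 35.7% of its level and its ratio after subtracting that share was 2.73.

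Genes known to respond to TGF-beta were among the higher genes. Pmepa1 (chr2:173224458-173276533), an inhibitor of SMAD signalling that TGF-beta induces, was at 476 counts (99.6 CPM) alone and 2130 counts (363 CPM) with EMT6.5, 3.64-fold (3.3 to 4.03) higher. In EMT6.5 itself Pmepa1 was at 330.2 CPM, for a carried-over estimate of 1.36%. Tgm2, the matrix cross-linking transglutaminase, was at 94.8 CPM alone and 251 CPM with EMT6.5, 2.65-fold (2.39 to 2.95) higher.

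The wider TGF-beta response list, also drawn up after values were seen, had 26 measured members. Of these, 6 were at least 2-fold higher and 0 lower, 12 were at least 1.5-fold higher, and 22 had a ratio above 1, with a median log2 ratio of 0.51. Over all measured genes 2.29% were at least 2-fold higher, 8.55% at least 1.5-fold higher and 50.9% above 1. Besides Pmepa1 and Tgm2 the 2-fold members included Skil, a SMAD co-repressor, at 18.6 CPM alone and 48.7 CPM with EMT6.5, the kinase gene Nuak1 at 21.1 CPM alone and 45.1 CPM with EMT6.5, and Snai1, a repressor of epithelial genes, at 15.3 CPM alone and 31.9 CPM with EMT6.5. The inhibitory SMAD gene Smad7 had few counts, 17 alone and 41 with EMT6.5, and its ratio was 1.96 (1.09 to 3.69). The ubiquitin ligase gene Smurf2 was 1.77-fold (1.56 to 2.01) higher and the early response factor Klf10 1.79-fold (1.63 to 1.96) higher. Ccn2, a TGF-beta and YAP target, was at 84.9 CPM alone and 91.5 CPM with EMT6.5, with a ratio of 1.08 (0.945 to 1.23). Set against the same monoculture, Bend3 with 4T1 had a median log2 ratio of 0.30 for this list, with Pmepa1 at 261 CPM. There 5 of the 26 were at least 2-fold higher and 0 lower, 7 were at least 1.5-fold higher, and 20 had a ratio above 1.

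BMP branch genes were not higher in the same way. In the list of BMP, TGF-beta and ID genes 2 of 21 measured members were at least 2-fold higher (Skil among them) and 1 lower, with a median of 0.18. Id2, an inhibitor of helix-loop-helix factors and a BMP target, was at 217 CPM alone and 97.3 CPM with EMT6.5, 2.23-fold (2.01 to 2.47) lower. Id1 was at 254 CPM alone and 204 CPM with EMT6.5 and Id3 at 72.4 CPM alone and 73.8 CPM with EMT6.5. The ligand gene Bmp4 was 1.6-fold (1.49 to 1.71) lower, at 409 CPM alone and 256 CPM with EMT6.5, and the receptor gene Acvrl1, which binds BMP9, was 1.27-fold (1.17 to 1.38) lower. The TGF-beta receptor gene Tgfbr2 had a ratio of 0.905 (0.833 to 0.982) and its co-receptor Eng one of 1.23 (1.12 to 1.36). The Smad binding element GTCTAGAC was searched on both strands of the 250 bases before each gene's start in the RefSeq promoter table (GRCm38.p6). It was found for 0 of the 14 TGF-beta response genes with a promoter there, and in 0.167% of all 32851 promoters. For so rare a sequence 0 of 14 was the likely outcome for any genes, so no conclusion is drawn from it.

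Endothelial genes were mostly at or above their level alone. Of 36 measured identity genes 30 had a ratio above 1, where 50.9% of all genes did. Of the 36, 3 were at least 2-fold higher, where 2.29% of all genes were, and 0 lower. The list's median log2 ratio was 0.20. Vwf, the gene of von Willebrand factor, was at 32 counts (6.69 CPM) alone and 136 counts (23.2 CPM) with EMT6.5, 3.46-fold (2.34 to 5.26) higher. Plvap, which forms the diaphragms of fenestrae and caveolae, was at 874 counts (183 CPM) alone and 2867 counts (488 CPM) with EMT6.5, 2.67-fold (2.48 to 2.88) higher. Sox18, an endothelial transcription factor, was at 13 CPM alone and 27.9 CPM with EMT6.5, 2.15-fold (1.6 to 2.93) higher. Vwf had 0 counts in EMT6.5, and the carried-over estimate was 0.0745% of the level of Plvap and 0.0114% of that of Sox18. Bend3 with 4T1 had Vwf at 12.4 CPM and Plvap at 289 CPM, between the 2 other libraries for both.

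The adhesion gene Pecam1 was at 2261 CPM alone and 3434 CPM with EMT6.5, 1.52-fold (1.48 to 1.55) higher, and the junction cadherin Cdh5 was 1.37-fold (1.31 to 1.43) higher. The phosphatase gene Ptprb, which acts on the receptor TIE2, was 1.71-fold (1.63 to 1.79) higher, and Tek, the gene of TIE2, 1.57-fold (1.36 to 1.8) higher. Cd93, a vascular lectin, was 1.62-fold (1.57 to 1.67) higher. By contrast Tie1 was at 524 CPM alone and 462 CPM with EMT6.5, and Nos3, Esam and Egfl7 had ratios of 1.05, 1.1 and 1.1. The haematopoietic and endothelial factor Lyl1 was the identity gene at least 1.5-fold lower, at 29.5 CPM alone and 18.7 CPM with EMT6.5.

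In the VEGF, neuropilin and angiopoietin list 1 of 16 members was at least 2-fold higher and the median was 0.25. That member was Pgf, placental growth factor, at 74 counts (15.5 CPM) alone and 232 counts (39.5 CPM) with EMT6.5, 2.55-fold (1.96 to 3.36) higher. The VEGF receptor genes were at 1857 CPM alone and 2464 CPM with EMT6.5 for Kdr and at 357 CPM alone and 383 CPM with EMT6.5 for Flt1. Semaphorin receptor Plxnd1 was 1.6-fold (1.47 to 1.75) higher and the ligand Pdgfa 1.68-fold (1.5 to 1.88) higher. Among genes of tip, venous and arterial cells, 2 of 12 were at least 2-fold higher, Pgf and the venous receptor Ephb4, which was at 62.8 CPM alone and 137 CPM with EMT6.5. Nr2f2, the venous transcription factor, was at 337 CPM alone and 509 CPM with EMT6.5, 1.51-fold (1.42 to 1.6) higher, whereas the tip cell peptide Apln had a ratio of 1.03 (0.985 to 1.07) and Unc5b one of 0.747 (0.645 to 0.865). Angpt2, the TIE2 ligand of tip cells, was below the level filter, with 23 counts alone and 5 with EMT6.5. The Notch list had 0 of 13 members past 2-fold and a median of 0.14; Rbpj, the pathway's DNA-binding factor, was at 23.6 CPM alone and 44.3 CPM with EMT6.5, Dll1 at 51.5 CPM alone and 79.4 CPM with EMT6.5 and the target Hes1 at 408 CPM alone and 493 CPM with EMT6.5.

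Brain barrier genes were split. Of 23 listed genes 11 were measured, 0 were at least 2-fold higher and 2 lower, and the median was -0.01. The Wnt target Apcdd1 was at 74 counts (15.5 CPM) alone and 13 counts (2.21 CPM) with EMT6.5, 6.99-fold (3.85 to 13.7) lower, and Tfrc, the transferrin receptor, was at 39.1 CPM alone and 16.7 CPM with EMT6.5, 2.34-fold (1.83 to 3.02) lower. The tight junction gene Cldn5 had a ratio of 1.11 (1.01 to 1.22) and the Ly6 genes Ly6a and Ly6c1 were at 1.23 and 1.62 times their level alone. The lipid transporter Mfsd2a had 0 counts in both Bend3 libraries. In the wider list of Wnt, ephrin and junction genes 1 of 18 was at least 2-fold higher (Ephb4) and 0 lower, with a median of 0.20, and the beta-catenin gene Ctnnb1 had a ratio of 0.885 (0.857 to 0.915).

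**Figure D3:**
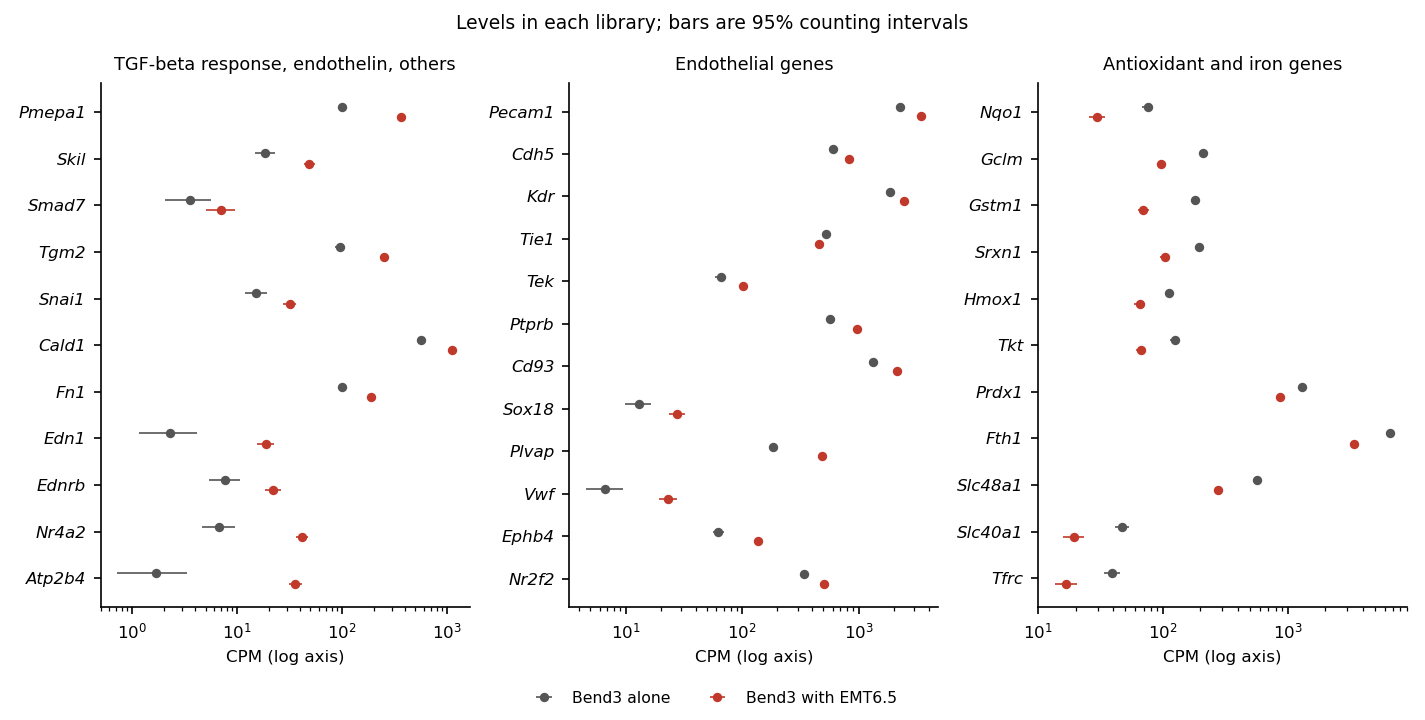
Level of 34 genes in Bend3 alone (grey) and Bend3 with EMT6.5 (red) in CPM on a log axis, 1 library each, with 95% counting intervals as bars. In the left panel the red points lie to the right of the grey ones, in the middle panel all but Tie1 do, and in the right panel the red points lie to the left.

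Matrix and adhesion genes differed gene by gene. Elastin, Eln, was at 56.1 CPM alone and 120.3 CPM with EMT6.5, 2.14-fold (1.86 to 2.48) higher, and fibronectin, Fn1, was at 99.4 CPM alone and 189 CPM with EMT6.5, 1.9-fold (1.71 to 2.12) higher with a carried-over estimate of 8.89%. Of 14 measured matricellular genes 3 were at least 2-fold higher and 0 lower (median 0.15), but for Spp1 and Igfbp7, the other two, the carried-over estimate was 48.9% and 84.7% of the level. Ccn3 was 1.68-fold (1.3 to 2.17) lower. Among 19 collagens and collagen enzymes (median 0.17), the 2 members at least 2-fold higher were Col1a1 and Col1a2, for which the estimate was 70.4% and 144%, so the carried-over share covers most or all of their level. Col6a3, a chain of the microfibrillar type VI collagen, was at 242 counts (50.6 CPM) alone and 91 counts (15.5 CPM) with EMT6.5, 3.27-fold (2.56 to 4.2) lower. Type IV collagen, the sheet-forming collagen of basement membranes, was higher in both main chains: Col4a1 was at 1419 CPM alone and 1862 CPM with EMT6.5 and Col4a2 at 797 CPM alone and 1101 CPM with EMT6.5, and their exons overlap head to head. In the basement membrane list 12 of 13 members had a ratio above 1, where 50.9% of all genes did. Of the 13, 0 were at least 2-fold higher and 1 lower, and the list's median was 0.26.

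Among proteases and their inhibitors 3 of 19 were at least 2-fold higher and 1 lower, with a median of 0.44. The aggrecanase gene Adamts4 was at 103 CPM alone and 229.8 CPM with EMT6.5, 2.24-fold (2.02 to 2.49) higher, and Adamts9 at 7.95 CPM alone and 18.2 CPM with EMT6.5. The related genes Adamts1 and Adamts5 were 1.65-fold (1.57 to 1.73) and 1.63-fold (1.53 to 1.73) higher. The stromelysin gene Mmp3 was at 60 counts (12.6 CPM) alone and 16 counts (2.73 CPM) with EMT6.5, 4.61-fold (2.62 to 8.57) lower. Inhibitors of metalloproteases went different ways, with ratios of 1.69 (1.38 to 2.08) for Timp1, 0.704 (0.687 to 0.721) for Timp2 and 1.36 (1.32 to 1.39) for Timp3. The plasminogen activator gene Plau was 1.3-fold (1.21 to 1.39) higher.

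Integrin genes had a median log2 ratio of 0.48 over 10 members, 8 of them with a ratio above 1, where 50.9% of all genes were. Itga2, a collagen receptor subunit, was the 1 member past 2-fold, at 13 counts (2.72 CPM) alone and 44 counts (7.49 CPM) with EMT6.5. The common beta subunit Itgb1 was at 766 CPM alone and 1147 CPM with EMT6.5, 1.5-fold (1.44 to 1.56) higher, and the fibronectin receptor subunit Itga5 was 1.63-fold (1.33 to 2.0) higher. The laminin receptor subunit Itga6 had a ratio of 0.985 (0.941 to 1.03). In the mesenchymal transition list 2 of 12 members were at least 2-fold higher and 1 lower, with a median of 0.32, which was 0.05 over members averaging 20 CPM or more. The higher ones were Snai1 and Acta2, the latter mostly within the carried-over estimate. S100a4, a calcium-binding protein gene of motile cells, was at 6798 counts (1422 CPM) alone and 3838 counts (654 CPM) with EMT6.5, 2.18-fold (2.09 to 2.26) lower, and the intermediate filament gene Vim was 1.27-fold (1.25 to 1.29) lower. Cald1, which encodes the actin-binding caldesmon, was at 567 CPM alone and 1117 CPM with EMT6.5, 1.97-fold (1.88 to 2.06) higher, and N-cadherin, Cdh2, was at 7.32 CPM alone and 13.3 CPM with EMT6.5 with 0 counts in EMT6.5. YAP targets had 0 of 14 members past even 1.5-fold and a median of 0.05.

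Immediate early genes, which handling and sorting can also induce, were higher as a group. Of 23 measured members 10 were at least 1.5-fold higher, where 8.55% of all genes were, and 0 lower. A ratio above 1 was found for 20, and for 50.9% of all genes. The list's median log2 ratio was 0.53, against 0.17 in Bend3 with 4T1. There 20 of the 23 also had a ratio above 1 and 2 were at least 2-fold higher, against 1 with EMT6.5. Fos was at 231 CPM alone and 409.8 CPM with EMT6.5, 1.77-fold (1.65 to 1.9) higher, and Fosb was 1.82-fold (1.69 to 1.96) higher. Klf2, the flow-responsive factor of endothelium, was at 1184 CPM alone and 1887 CPM with EMT6.5, 1.59-fold (1.54 to 1.65) higher. Egr1 and Junb were at 1.34 and 1.39 times their level alone. Several genes named above (Nr4a2, Edn1, Snai1, Adamts4, Pde4b) can respond quickly to stimuli too, and for them too sorting and co-culture cannot be told apart.

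The list of NF-kB targets and adhesion molecules also leaned higher, with 14 of 15 measured members above 1, where 50.9% of all genes were. It leaves out the chemokine genes Cxcl1, Cxcl2 and Ccl2, which were lower and stand in a separate list below. Of the 15, 2 were at least 2-fold higher, where 2.29% of all genes were, and the median was 0.43. The 2 were feedback regulators at low levels: Tnfaip3 (A20) at 23 counts (4.81 CPM) alone and 69 counts (11.8 CPM) with EMT6.5 and Bcl3 at 24 counts (5.02 CPM) alone and 71 counts (12.1 CPM) with EMT6.5. The inhibitor gene Nfkbia was at 336 CPM alone and 427 CPM with EMT6.5 and the adhesion molecule Vcam1 at 261 CPM alone and 313 CPM with EMT6.5. The leukocyte adhesion molecule Selp had a ratio of 1.24 (1.04 to 1.5), while Icam1 had 2 and 4 counts. Chemokines and myeloid growth factors were split, with 4 of 8 above 1 and 4 below, 1 at least 2-fold higher, 1 lower, and a median of 0.08. The neutrophil chemokine Cxcl2 was at 58 counts (12.1 CPM) alone and 21 counts (3.58 CPM) with EMT6.5, 3.39-fold (2.03 to 5.88) lower. Cxcl1 was at 41 CPM alone and 23 CPM with EMT6.5, 1.78-fold (1.42 to 2.24) lower, and Ccl2, which draws monocytes, at 88.3 CPM alone and 67.8 CPM with EMT6.5. Bend3 with 4T1 had all 3 above their level alone, with ratios of 1.34, 1.09 and 1.13. Fractalkine, Cx3cl1, was at 23 counts (4.81 CPM) alone and 79 counts (13.5 CPM) with EMT6.5, with a carried-over estimate of 21.2%. The macrophage growth factor Csf1 had a ratio of 1.44 (1.22 to 1.71), the chemokine Cxcl12 one of 1.26 (1.12 to 1.42) and its scavenging receptor Ackr3 one of 1.34 (1.22 to 1.48), while Ccl5 was at 0.89 (0.576 to 1.38).

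Among genes averaging 10 CPM or more, the largest ratio in the other direction was that of Sstr2 (chr11:113619342-113626028), a somatostatin receptor gene. It was at 332 counts (69.5 CPM) alone and 77 counts (13.1 CPM) with EMT6.5, 5.3-fold (4.12 to 6.88) lower, and had 0 counts in EMT6.5. It was also low in Bend3 with 4T1, at 10.7 CPM.

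Among the abundant genes Nptx1, the gene of neuronal pentraxin 1, was at 9418 counts (1970.2 CPM) alone and 4612 counts (786 CPM) with EMT6.5, 2.51-fold (2.42 to 2.6) lower. The kinase gene Sgk2 was at 25.3 CPM alone and 6.3 CPM with EMT6.5, 4.02-fold (2.76 to 5.97) lower, and Ahrr, the repressor of the aryl hydrocarbon receptor, was at 15.5 CPM alone and 4.77 CPM with EMT6.5, 3.25-fold (2.08 to 5.21) lower. The exchanger gene Clcn6 was 3.52-fold (2.28 to 5.57) lower, the adhesion genes Igsf9b and Cdh26 2.92-fold and 2.81-fold lower, and the RNA-binding protein gene Rbmx 2.78-fold lower. Coprs and Ddt were 2.42-fold and 2.56-fold lower, the latter overlapping another gene on its strand. The pseudogene Ifi203-ps and the model C430049B03Rik were 3.68-fold and 3.73-fold lower.

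Antioxidant genes were lower as a group. Of 26 measured members of the NRF2, glutathione and antioxidant list 3 were at least 2-fold lower and 1 higher, 8 were at least 1.5-fold lower, and 21 had a ratio below 1, where 49.1% of all genes did. The median log2 ratio was -0.39. Nqo1 (chr8:107388225-107403206), a quinone reductase and a standard NRF2 target, was at 361 counts (75.5 CPM) alone and 175 counts (29.8 CPM) with EMT6.5, 2.53-fold (2.11 to 3.05) lower. Gclm, the modifier subunit of the enzyme that starts glutathione synthesis, was at 999 counts (209 CPM) alone and 569 counts (96.9 CPM) with EMT6.5, 2.16-fold (1.94 to 2.39) lower. The glutathione transferase gene Gstm1 was at 182 CPM alone and 69.7 CPM with EMT6.5, 2.61-fold (2.32 to 2.95) lower, and Srxn1, sulfiredoxin, at 193 CPM alone and 104 CPM with EMT6.5, 1.86-fold (1.68 to 2.07) lower. These genes are also expressed in EMT6.5, and the carried-over estimate was 7.42% of the level for Nqo1 and 7.91% for Gstm1. The member at least 2-fold higher was the metallothionein Mt1, with 19 and 48 counts and a carried-over estimate of 29.1%. At the largest share of a single gene, 6.79%, the estimate would be 129% of the Mt1 level.

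Smaller ratios were found for other enzymes of the list. Hmox1, heme oxygenase 1, was 1.73-fold (1.52 to 1.98) lower, the pentose phosphate enzymes Tkt and Pgd 1.87-fold and 1.53-fold lower, and catalase, Cat, 1.64-fold lower. The peroxiredoxin Prdx1 was at 1298 CPM alone and 873 CPM with EMT6.5, 1.49-fold (1.43 to 1.54) lower. The cystine transporter Slc7a11 was at 68.6 CPM alone and 51.3 CPM with EMT6.5 and Txnrd1, thioredoxin reductase, at 237 CPM alone and 185 CPM with EMT6.5. Glutathione peroxidase 1, Gpx1, went the other way, at 316 CPM alone and 394 CPM with EMT6.5. Against the same monoculture, Bend3 with 4T1 had a median of -0.44 for the list, with Nqo1 at 43 CPM and Gclm at 133 CPM.

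The antioxidant response element, which NRF2 binds, was searched as TGACNNNGC on both strands of the 250 bases before each gene's start in the RefSeq promoter table (GRCm38.p6). Counted by gene, it was found for 5 of the 21 list members with a promoter there, G6pdx, Gclm, Prdx1, Sod1 and Txnrd1, and, counted by single promoter, in 10.2% of all 32851 promoters. Stretches around the match are printed for 3 of them, because the gene was lower in co-culture and the stretch holds no annotated exon. Each is given 5′ to 3′ on the gene's strand with the match in capitals. The match lies 134 bases before the start for Gclm, 133 for Prdx1 and 92 for Txnrd1, and in all 3 it is in the reverse orientation.
Gclm, chr3:122245383-122245471 (+): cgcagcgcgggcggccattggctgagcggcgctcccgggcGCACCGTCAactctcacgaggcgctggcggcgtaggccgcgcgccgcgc
Prdx1, chr4:116685426-116685514 (+): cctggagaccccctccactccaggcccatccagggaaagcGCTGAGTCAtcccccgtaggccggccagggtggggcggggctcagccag
Txnrd1, chr10:82859074-82859162 (+): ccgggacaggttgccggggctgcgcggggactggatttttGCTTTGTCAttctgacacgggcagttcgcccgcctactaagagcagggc

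Iron and heme genes leaned lower. A list drawn up after values were seen had a median of -0.26. In it 3 of 20 measured members were at least 2-fold lower, where 1.87% of all genes were, and 0 higher. The 3 were the iron exporter Slc40a1 (ferroportin) at 47.3 CPM alone and 19.2 CPM with EMT6.5, 2.46-fold (1.95 to 3.11) lower, the importer Tfrc given above, and the heme transporter Slc48a1 at 572 CPM alone and 275 CPM with EMT6.5, 2.08-fold (1.96 to 2.21) lower. Ferritin heavy chain, Fth1, was at 31306 counts (6549 CPM) alone and 20052 counts (3416 CPM) with EMT6.5, 1.92-fold (1.88 to 1.95) lower, but this gene has many processed copies in the genome. Its light chain partner Ftl1 had 20 and 6 counts, too few to describe.

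Sterol and lipid genes leaned lower. In the cholesterol and fatty acid synthesis list 17 of 25 had a ratio below 1, where 49.1% of all genes did. Of the 25, 0 were at least 2-fold higher and 1 lower, and the list's median was -0.21. Mvk, mevalonate kinase, was at 16.1 CPM alone and 8.69 CPM with EMT6.5, and Insig1, which holds sterol-regulated SREBP in the endoplasmic reticulum, was at 13.6 CPM alone and 8.18 CPM with EMT6.5. Sqle, squalene epoxidase, had a ratio of 0.89 (0.679 to 1.17), an interval that includes 1. Srebf1 was at 23 CPM alone and 35.6 CPM with EMT6.5. In the lipid uptake, storage and PPAR list 1 of 15 was at least 2-fold higher and 0 lower, with a median of -0.21. Pparg, the nuclear receptor that drives lipid storage genes, was at 39.1 CPM alone and 23.7 CPM with EMT6.5, 1.65-fold (1.32 to 2.07) lower, with 0 counts in EMT6.5. The apolipoprotein gene Apoe had 19 counts alone and 71 with EMT6.5, and Gpihbp1, which anchors lipoprotein lipase on endothelium, was at 27.6 CPM alone and 45.6 CPM with EMT6.5, 1.65-fold (1.34 to 2.05) higher.

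Interferon-stimulated genes were lower with EMT6.5 and higher with 4T1. Of 32 measured members 27 had a ratio below 1 with EMT6.5, where 49.1% of all genes did. Of the 32, 12 were at least 1.5-fold lower, where 7.9% of all genes were, and 0 higher. The 1 member at least 2-fold lower was Gbp3. The median log2 ratio was -0.40. With 4T1, against the same monoculture, 18 were at least 2-fold higher, where 2.29% of all genes were, and the median was 1.10. Ifit1, an inhibitor of viral translation, was at 105 CPM alone, 67.1 CPM with EMT6.5 and 276 CPM with 4T1. Isg15, a ubiquitin-like modifier, was at 18, 11.9 and 52.6 CPM in that order. Its protease Usp18 was at 24.7, 12.4 and 52.5 CPM. For each of the 3 Bend3 with EMT6.5 is lowest and Bend3 with 4T1 highest, with the monoculture between.

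The factor Irf7 was 1.67-fold (1.32 to 2.1) lower with EMT6.5, the guanylate-binding protein gene Gbp3 2.04-fold (1.34 to 3.13) lower and the GTPase gene Irgm1 1.96-fold (1.54 to 2.49) lower. The nucleic acid sensor gene Oasl2 was at 56.9 CPM alone and 32.9 CPM with EMT6.5, 1.73-fold (1.43 to 2.09) lower, and Rtp4 and Xaf1 were 1.68-fold and 1.63-fold lower. The interferon signalling factor Stat2 was at 56.9 CPM alone and 78.9 CPM with EMT6.5, 1.39-fold (1.19 to 1.62) higher. The interferon target Ifi27 had a ratio of 1.14 (1.05 to 1.25) with EMT6.5 and of 0.612 with 4T1. In the antigen presentation list 0 of 14 were past 2-fold either way with EMT6.5 and the median was -0.04, against 0.57 with 4T1. The class I light chain B2m was at 1722 CPM alone, 1482 CPM with EMT6.5 and 3005 CPM with 4T1. With only 1 library for the monoculture, a high or low value in it would shift both ratios the same way, and the difference between the 2 partners was not tested.

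The interferon-stimulated response element, the motif bound by the complex that interferon signalling activates, was searched as GAAA, any 2 bases, GAAA on both strands of the same promoter windows. Counted by gene, it was found for 13 of the 24 list members with a promoter in the table, and, counted by single promoter, in 2.98% of all promoters. Stretches for 4 genes are printed because each gene was lower with EMT6.5 and higher with 4T1, and because the stretches of the neighbouring genes Ifit3 and Ifit3b are identical. The counts of such near-identical copies are uncertain. The matches are in capitals and the strand is the gene's.
Ifit3b, chr19:34607729-34607852 (+): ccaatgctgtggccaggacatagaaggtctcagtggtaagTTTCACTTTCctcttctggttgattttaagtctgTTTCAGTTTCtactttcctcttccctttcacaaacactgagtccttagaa
Ifit3, chr19:34583333-34583456 (+): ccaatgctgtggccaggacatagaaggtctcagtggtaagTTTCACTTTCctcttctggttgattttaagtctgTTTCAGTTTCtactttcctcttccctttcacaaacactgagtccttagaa
Ifit1, chr19:34640745-34640853 (+): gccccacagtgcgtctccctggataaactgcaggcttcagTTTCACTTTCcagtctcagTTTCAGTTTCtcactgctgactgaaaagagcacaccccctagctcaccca
Isg15, chr4:156200835-156200936 (-): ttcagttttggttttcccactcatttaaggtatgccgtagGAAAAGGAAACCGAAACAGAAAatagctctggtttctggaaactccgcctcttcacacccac

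Beside these sequences, Ifit3b was at 32.6 CPM alone and 18.1 CPM with EMT6.5 and Ifit3 at 123 CPM alone and 77.5 CPM with EMT6.5, 1.81-fold and 1.58-fold lower. With 4T1 they were at 119.8 and 347 CPM. The plot of interferon and cell cycle genes by library shows the order of the 3 libraries for 11 members.

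**Figure D4:**
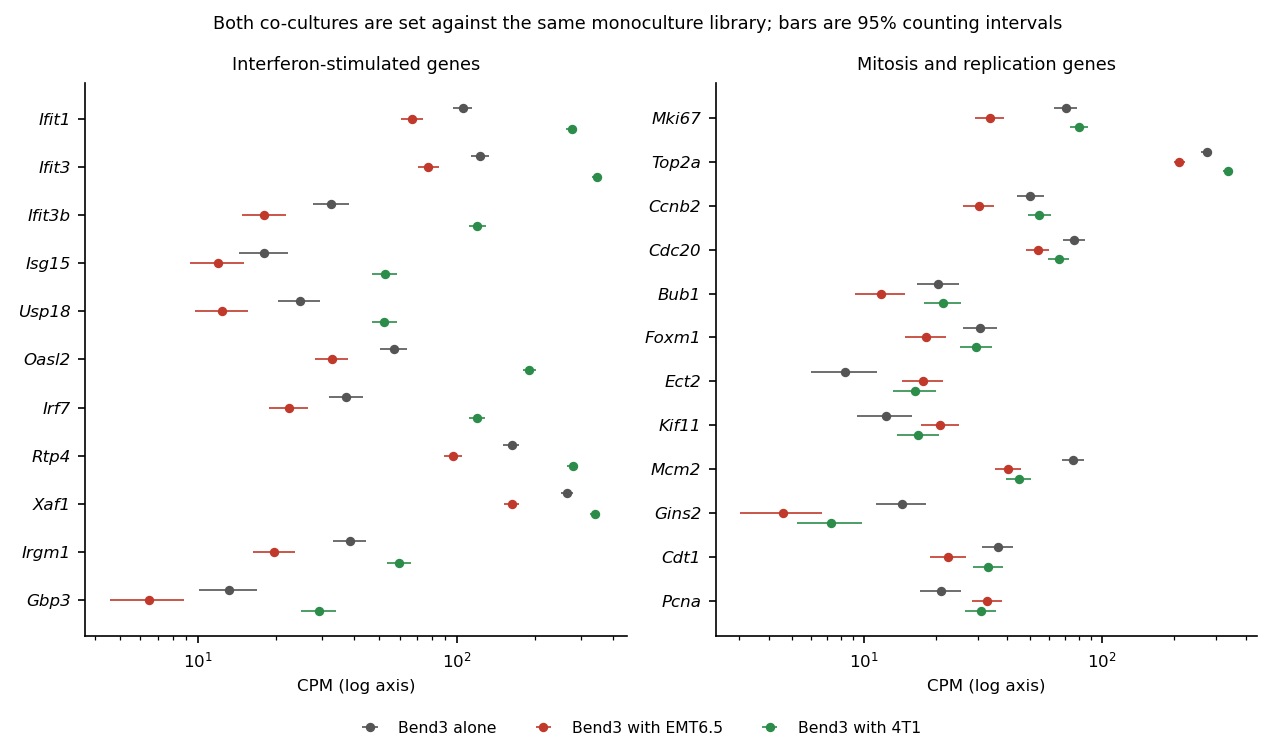
Level in CPM (log axis) of 11 interferon-stimulated genes and 12 mitosis and replication genes in Bend3 alone (grey), with EMT6.5 (red) and with 4T1 (green), 1 library each, with 95% counting intervals as bars. In the interferon panel the red points lie to the left of the grey and the green points to the right; in the other panel the red points lie to the left of the grey except for Ect2, Kif11 and Pcna.

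Cell division genes were lower with EMT6.5. In the mitosis list 23 of 26 members had a ratio below 1, where 49.1% of all genes did. Of the 26, 5 were at least 1.5-fold lower and 2 higher, where 7.9% and 8.55% of all genes were. The list's median was -0.35. Mki67, the marker of cycling cells, was at 70.3 CPM alone, 33.7 CPM with EMT6.5 and 80.0 CPM with 4T1, 2.08-fold (1.74 to 2.5) lower with EMT6.5. Top2a, the DNA-untangling topoisomerase, was at 275, 211 and 337 CPM in that order. The cyclin gene Ccnb2 was 1.65-fold (1.35 to 2.01) lower, the checkpoint kinase gene Bub1 1.74-fold (1.27 to 2.41) lower and the mitotic transcription factor gene Foxm1 1.69-fold (1.31 to 2.19) lower. The cytokinesis regulator Ect2, at 8.37 CPM alone and 17.7 CPM with EMT6.5, and the spindle motor Kif11, at 12.3 CPM alone and 21 CPM with EMT6.5, went the other way. The median with 4T1 was 0.12. Mki67 was at 146 CPM in EMT6.5, and the carried-over estimate was 6.46% of the Mki67 level and 4.47% of that of Foxm1.

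Replication genes had a median of -0.31, with 3 of 29 at least 2-fold lower, where 1.87% of all genes were, and 0 higher. Of the 29, 10 were at least 1.5-fold lower and 3 higher, where 7.9% and 8.55% of all genes were. Bend3 with 4T1, against the same monoculture, also had a negative median for this list, -0.22. There 6 of the 29 had a ratio above 1, against 8 with EMT6.5, and 0 were at least 2-fold lower. The helicase partner genes Gins2 and Gins1 were at 69 counts (14.4 CPM) alone and 27 counts (4.6 CPM) with EMT6.5, and at 51 counts (10.7 CPM) alone and 29 counts (4.94 CPM) with EMT6.5, respectively. Orc1, of the origin recognition complex, was at 8.58 CPM alone and 3.75 CPM with EMT6.5. The helicase subunit Mcm2 was at 75.5 CPM alone and 40.4 CPM with EMT6.5, 1.87-fold (1.58 to 2.21) lower, and the licensing factor Cdt1 1.61-fold (1.27 to 2.03) lower, while Mcm7 had a ratio of 1.05 (0.927 to 1.19). The PCNA-binding gene Pclaf was 2.47-fold (2.01 to 3.05) lower. Against this direction Pcna itself was 1.56-fold (1.22 to 2.0) higher and the G1/S cyclin genes Ccne1 and Ccne2 1.81-fold (1.17 to 2.87) and 1.56-fold (1.04 to 2.39) higher. Thymidine kinase 1, Tk1, was at 48.7 CPM alone and 27.6 CPM with EMT6.5 in the nucleotide synthesis list, which had 0 of 20 past 2-fold and a median of -0.14. The p53 list had 0 of 20 past 2-fold and a median of 0.09, with the cell cycle inhibitor Cdkn1a at 1120.3 CPM alone and 1119 CPM with EMT6.5.

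Amino acid stress genes were modestly higher. Among 31 measured ATF4 targets 8 were at least 1.5-fold higher and 22 had a ratio above 1, where 8.55% and 50.9% of all genes did. The list's median was 0.33. Of the 31, 2 were at least 2-fold higher, where 2.29% of all genes were, and 0 lower. The 2 were Slc1a4, a neutral amino acid transporter, at 80 counts (16.7 CPM) alone and 229 counts (39 CPM) with EMT6.5, and Cth, which makes cysteine from cystathionine, at 11 counts (2.3 CPM) alone and 49 counts (8.35 CPM) with EMT6.5. The growth inhibitor gene Ddit4 was at 165 CPM alone and 313 CPM with EMT6.5, 1.89-fold (1.74 to 2.06) higher, the transfer RNA synthetase gene Wars 1.91-fold (1.69 to 2.16) higher and the transporter gene Slc38a2 1.64-fold (1.55 to 1.74) higher. Atf4 itself had a ratio of 1.19 (1.12 to 1.27). Genes of the unfolded protein response leaned the other way, with 15 of 20 below 1, where 49.1% of all genes were. Of the 20, 0 were past 2-fold, and the list's median was -0.18. The chaperone genes Hyou1 and Hsp90b1 were 1.82-fold (1.39 to 2.4) and 1.46-fold (1.39 to 1.53) lower, and Hspa5 (BiP) was at 911 CPM alone and 819 CPM with EMT6.5. The heat shock list had 0 of 9 past 2-fold and a median of 0.02.

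The title of the series names PHGDH, the first enzyme of serine synthesis. In Bend3, Phgdh was at 177 counts (37 CPM) alone and 165 counts (28.1 CPM) with EMT6.5, 1.32-fold (1.06 to 1.64) lower, and Psat1, which acts next, was at 204 CPM alone and 145 CPM with EMT6.5, 1.41-fold (1.28 to 1.54) lower. Psph, the last, was at 55.2 CPM alone and 82.6 CPM with EMT6.5, 1.5-fold (1.28 to 1.74) higher, and with 4T1 the ratios were 0.868, 0.708 and 1.66. In the serine and one-carbon list 2 of 20 were at least 2-fold higher and 0 lower, with a median of -0.04; they were Slc1a4 and Amt, of glycine cleavage, the latter with 16 and 40 counts. The mitochondrial folate enzymes Mthfd2 and Shmt2 had ratios of 1.11 (1.03 to 1.2) and 0.924 (0.85 to 1.0). In the hexosamine and sialic acid list 2 of 19 were at least 2-fold higher and 0 lower, with a median of -0.07. The sialyltransferase gene St3gal4 was at 49 counts (10.3 CPM) alone and 139 counts (23.7 CPM) with EMT6.5, 2.31-fold (1.66 to 3.27) higher, and St6galnac6 had 17 and 46 counts. Gfpt1, which starts hexosamine synthesis, was at 56.3 CPM alone and 28.6 CPM with EMT6.5, 1.97-fold (1.62 to 2.4) lower.

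Energy metabolism showed small differences. Glycolysis had a median of 0.05 over 15 members, and its 2 members at least 2-fold lower, Pgk1 and Eno1, had 41 counts each alone and 15 and 25 with EMT6.5; both have processed copies elsewhere in the genome, so their counts are uncertain. Pfkfb3, which makes the activator of phosphofructokinase, was at 12.8 CPM alone and 7.15 CPM with EMT6.5, 1.78-fold (1.18 to 2.71) lower, and Ldha, lactate dehydrogenase, was at 153 CPM alone and 174 CPM with EMT6.5. Hypoxia targets had 17 of 19 members above 1, where 50.9% of all genes were, with 0 past 2-fold and a median of 0.27. The oxygen sensor gene Egln3 was at 336 CPM alone and 407 CPM with EMT6.5. Nuclear respiratory chain genes had 0 of 30 past 2-fold and a median of -0.17; Ndufa1 and Ndufa9 of complex I were 1.63-fold and 1.56-fold lower. Of the mitochondrial genome's 7 measured protein genes 6 had a counting interval below 1, with a median of -0.14. They ran from mt-Nd6 at 12.6 CPM alone and 7.15 CPM with EMT6.5 and mt-Nd2 at 7995 CPM alone and 5239 CPM with EMT6.5 to mt-Co1, with a ratio of 0.997 (0.949 to 1.05).

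**Figure D5:**
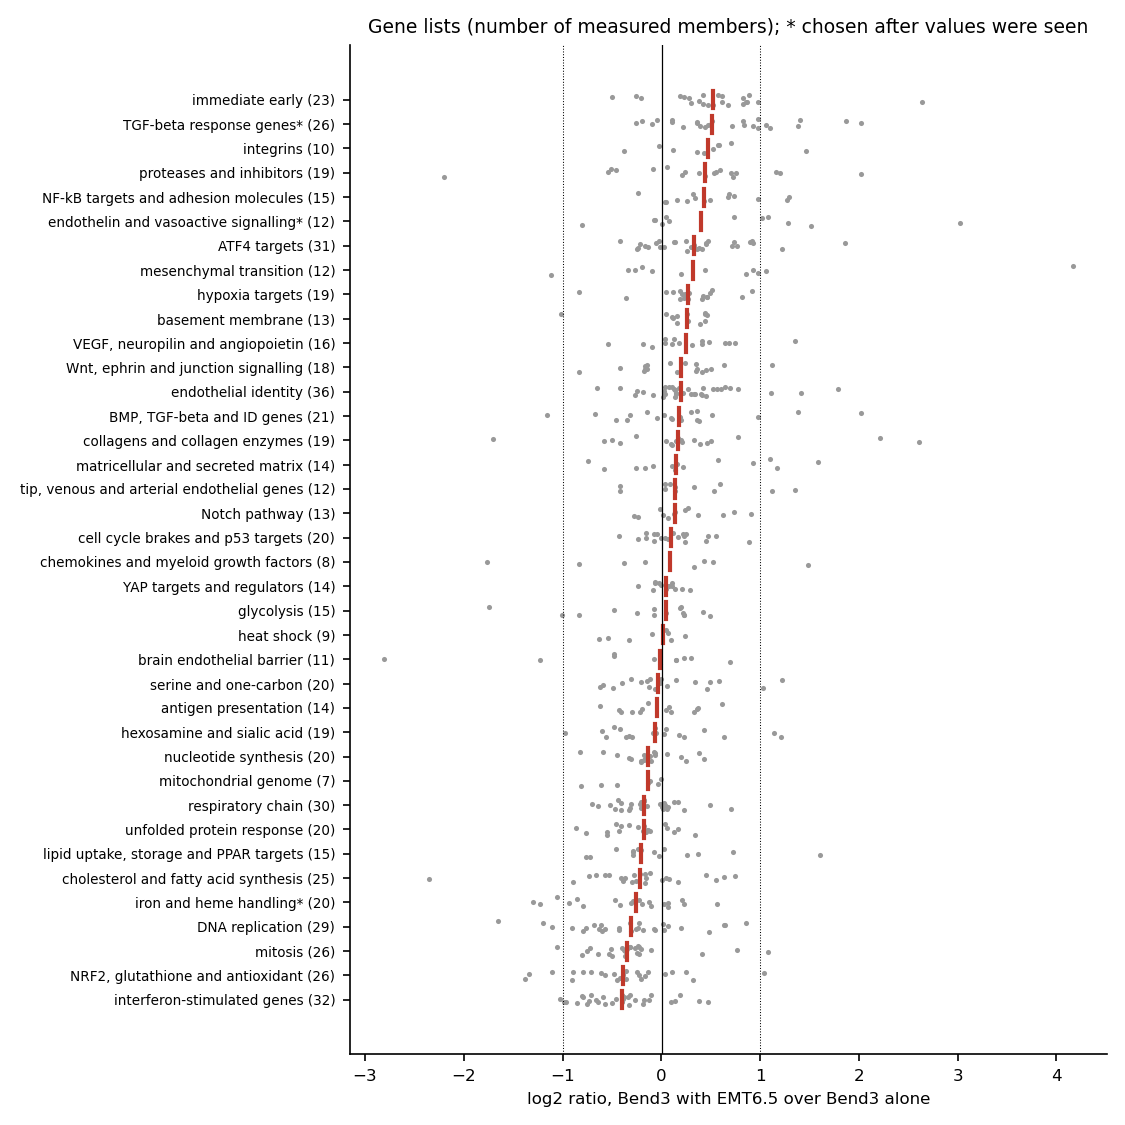
Log2 ratio of Bend3 with EMT6.5 over Bend3 alone (x axis) for each measured member (grey points) of lists with at least 5 such members, ordered by median (red bar). The solid line is the median of all genes and dotted lines mark 2-fold; immediate early genes (0.53) are at the top and interferon-stimulated genes (-0.40) at the bottom.

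Some genes were near 0 in 1 of the 2 libraries. Of 18 genes with at most 3 counts in one library and at least 5 CPM in the other, 16 were the higher ones with EMT6.5. For Axl, Col6a1, Gpc1 and Aebp1 the carried-over estimate was at or above the observed level, and for Acta2 it was 87.7%. Lad1, Plac8 and Prkg2 had estimates of 40.5%, 37.3% and 39.1%. Axl, Col6a1, Aebp1, Lad1, Plac8 and Prkg2 are among the 117 genes that gave the share, so their estimates are not independent of their levels. The own shares of Lad1, Plac8 and Prkg2 were 3.77%, 4.09% and 3.90%, within the range of 0 to 6.79% of that set. Whether any of their level came from Bend3 cannot be told. For the rest of the 16 the estimate was at most 5.27% of the level. Hs3st1, a heparan sulfate sulfotransferase, had 0 counts alone, 36 with EMT6.5 and 0 in EMT6.5 itself. Its level with EMT6.5 was 9.77 times the floor of 3 counts in the monoculture library, a value that leaves out counting error. The ephrin gene Efna4 had 0 and 32 counts, 8.68 times the same floor, and overlaps an opposite-strand gene. Clp1, an RNA 5′ kinase, had 2 and 62 counts, a ratio of 25.2 (6.7 to 213). The tetraspanin Cd53 had 1 and 35 counts and 0 in EMT6.5, and Bend3 with 4T1 had 17. Sapcd1, Gm35339, Gm44093 and 6430511E19Rik had 2 or 3 counts alone and 30 to 40 with EMT6.5. In the other direction, the mitotic motor Kifc1 had 26 counts alone and 2 with EMT6.5, and the pseudogene Slfn10-ps had 24 and 2.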

How the data were processed

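RNA-seq of cultured cells was used as whole-number gene counts, deposited by the authors, 1 table per library. Per the submitters' processing notes the authors trimmed with Trim Galore 0.5.0, aligned to GRCm38 (mm10) with HISAT2 2.1.0 and counted with HTSeq. The HTSeq version, annotation, strand setting and treatment of overlapping genes are not given in the sources used here. Libraries were made from 1 µg of total RNA with a stranded mRNA kit and read as 50 bp single ends, per the labels. They carry no molecular identifiers. The 5 summary lines of each table were left out, and 99.8% of 55573 gene IDs matched GENCODE vM21, which gave positions. Symbols were those in the deposited counts.

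Counts were scaled with edgeR 4.0.16 (TMM, monoculture as reference) in R 4.3.3. Ratios have 95% exact conditional intervals from scipy 1.17.1. The ratio and interval code was tested on simulated data. No test was run, since each side has 1 library. Genes averaging 5 CPM or more were described, in 38 lists and 3 lists made after values were seen. Members and lists were all chosen with earlier results of these data known. Genes were named by rule: the 20 in each direction with the largest ratio by the interval bound nearest to no change (averaging 10 CPM or more), those covered for at least 50% by the carried-over share set apart, each list's members past 2-fold and up to 4 abundant ones, the serine enzymes, and genes with at most 3 counts in one library. Other genes named, mostly list members between 1.5-fold and 2-fold or known pathway genes, were chosen after their values were seen. Some genes that the rule names are not reported here. Alternatives were library totals, DESeq2 1.42.0 size factors, other level filters and folds, a prior count of 2, and subtraction of the carried-over share.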

Additional observations from a re-analysis of the deposited data

Results flagged for a closer look

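The interferon-stimulated genes had opposite directions in Bend3 with the 2 tumour partners. The median log2 ratio of the 32 measured members was -0.40 with EMT6.5 and 1.10 with 4T1, both against the single monoculture library. Ifi44 was at 77.2 CPM alone, 59.4 CPM with EMT6.5 and 275 CPM with 4T1, and Gbp7 at 85.8, 71.2 and 204 CPM. The difference between the partners was not tested, since each condition has 1 library.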

How the results depend on the processing

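No paired analysis was possible because each condition has 1 library and no test was run, and for the same reason no replicate could be left out. The counts of genes at least 2-fold higher (227) and lower (186) became 251 and 168 with library totals, 226 and 187 with DESeq2 size factors, 205 and 167 with a prior count of 2, 218 and 214 after subtraction of the carried-over share, and, in an alternative added after seeing the data, 185 and 163 among protein-coding genes. They depended on the filter and the fold: 3199 and 2591 over every gene with at least 1 count, 56 and 35 among genes averaging 20 CPM or more, 55 and 32 with the interval wholly past 2-fold, and 849 and 785 at 1.5-fold. The carried-over share of 1.53% was 1.64% with genes of at least 20 CPM in EMT6.5, 1.38% with at least 100 CPM and 1.49% with at most 0.2 CPM in Bend3 alone. Subtracting that share left ratios of 0 for Cp, Col1a2, Col6a1, Axl and Gpc1, 0.467 for Igfbp7 and 0.145 for Wfdc2, so these 7 turned direction, as the subtraction by construction lowers genes that are high in EMT6.5. Of 246 ratios, 236 stayed within their counting interval after subtraction and 239 with library totals. Over members averaging 20 CPM or more the median was 0.05 for the mesenchymal list, 0.20 for glycolysis and 0.08 for the endothelin list. Library totals shifted the median of all genes by 0.03 on the log2 scale. Genes with few counts have wide intervals, and the spread between cultures is unknown.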

Other observations

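Among gene classes, a few had medians away from that of protein-coding genes. The 171 measured models of the class TEC (models that await experimental support) had a median log2 ratio of 0.22 and 24 sense-intronic models one of 0.36, against 0.01 for 9374 protein-coding genes, and the same medians in Bend3 with 4T1 were 0.08 and 0.07. The 10 mitochondrial transfer RNA genes had a median of 0.69, and the 7 measured mitochondrial protein genes one of -0.14. Other classes of at least 10 measured members had medians of -0.05 (47 antisense genes), 0.00 (77 processed pseudogenes), 0.01 (65 processed transcripts), 0.03 (93 lincRNAs), 0.04 (12 bidirectional promoter RNAs) and 0.21 (15 transcribed processed pseudogenes).

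Median log2 ratios over deciles of genes ranked by exon length lay between -0.04 and 0.04, and over deciles ranked by GC content between -0.02 and 0.03.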
